A study of Mus musculus with 2 samples.

Results

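The taste receptors described here are the genes whose symbol is Tas1r or Tas2r followed by a number. Of the 31053 genes in the deposited matrices 38 met this rule, 3 Tas1r genes and 35 Tas2r genes. The rule uses symbols and no measured value, but it was set with earlier results of these data known. The cells are medullary thymic epithelial cells of the mouse, sorted as EPCAM+ Ly51- and sequenced by single-cell RNA sequencing with the 10x Genomics 3' kit. The series compares conditional deletion of Ikaros, a zinc finger transcription factor, with controls in 2 libraries, 1 per genotype. One carries the label Foxn1-Cre(+) Ikaros+/fl, the other the label Foxn1-Cre(+) Ikarosfl/fl, so that Foxn1-Cre, which drives recombination in thymic epithelium, is present in both. The labels give no age, sex or number of mice and no deleted exon.

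By the names of the submitted matrices the genotypes would be swapped, so the libraries are called +/fl-labelled and fl/fl-labelled throughout. Paired values are given in that order. The libraries also differ in sex-linked transcripts, so genotype, sex and library cannot be told apart. With 1 library per genotype no test was possible. All 95% intervals in parentheses are exact Poisson or Clopper-Pearson intervals that cover counting error only. A cell was counted as tuft-gated when Trpm5, Dclk1 and Alox5ap together gave at least 10 UMIs (unique molecules) per 10000. This gate, which uses no taste receptor, held 1754 of 4891 kept cells (35.9%) of the +/fl-labelled library and 692 of 7669 (9.02%) of the fl/fl-labelled library. The tuft-gated cells had 19111360 and 5347224 UMIs in all, with medians of 9424 and 6178 per cell. The libraries shared 25 cell barcodes, of which 10 were kept in both and 1 was tuft-gated in both.

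Taste receptors are G protein-coupled receptors. Tas1r1 pairs with Tas1r3 to form the umami receptor, Tas1r2 pairs with Tas1r3 to form the sweet receptor, and each Tas2r is a bitter receptor. In taste buds they signal through the G protein alpha subunit gustducin (Gnat3), the phospholipase Plcb2, the calcium store channel Itpr3 and the cation channel Trpm5. Tuft cells are chemosensory epithelial cells that use the same cascade and depend on the POU-domain factor Pou2f3, and a tuft-like population arises in the thymic medulla. Pou2f3, which was not part of the gate, had 132 and 143 UMIs per 1000000 (CPM) in the tuft-gated cells. Of the 9 haematopoietic markers on a fixed list only Ptprc and Ccr7 reached 50 UMIs in tuft-gated cells, together at 56.3 and 60.4 CPM, and Itgax was at 0 in both libraries.

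The receptor genes fall into separate stretches of the genome, here read from the GENCODE M21 annotation of GRCm38. All 3 Tas1r genes lie on chromosome 4 and have 6 exons each. Of the 35 Tas2r genes 9 lie between positions 23969161 and 42435464 of chromosome 6, called the proximal block below. A further 24 lie between 131629823 and 133055816 of the same chromosome, called the distal block, and Tas2r134 (chromosome 2) and Tas2r119 (chromosome 15) stand alone. These blocks were used after the receptor values had been seen. All 35 Tas2r genes have a single exon, of 882 to 1158 bases, and 21 of them end at the stop codon in the annotation. The median annotated stretch after the stop codon was 0 bases for Tas2r genes and 602 bases for 21859 other coding genes. Because 3' tags fall at transcript ends, molecules that end beyond such a model would go uncounted, and the annotation that the authors counted with is not given in the sources used here. Whether this lowered Tas2r counts was not tested, so UMIs are compared for the same receptor or the same sum of receptors, and ranks between receptors describe these matrices only. Tas2r110 and Tas2r123 share 3.29% of their 91-base windows and no other Tas2r pair shares any. Tas1r2 overlaps Gm21969 on the same strand and Tas1r3 overlaps Dvl1 on the other strand.

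Promoter windows of 300 bases (250 before to 50 after the annotated start, RefSeq, GRCm38.p6) were found for 34 of the 38 genes and not for Tas2r116, Tas2r117, Tas2r121 or Tas2r136. The octamer ATGCAAAT, the sequence that POU-domain factors are known to bind, was searched on both strands. It was present in 6 of 9 proximal windows (66.7%), in 1 of 20 distal windows (Tas2r107, 5.0%), in 0 of 3 Tas1r windows, and in 1.74% of all 32851 windows of this length. In all 6 proximal windows it stood in the reverse orientation, starting 124 to 194 bases before the annotated start. Several models have no annotated bases before the start codon, such as Tas2r118, with 897 coding bases in a model of 900. Their windows are placed by the start codon and may not hold the promoter, which also limits the comparison of the blocks. The shorter core TGCAAA, which every octamer contains, was present in 8 of 9 proximal and 4 of 20 distal windows, against 15.5% of all windows. The sequence TATAAA was in 1 of 9 and 8 of 20 windows (13.6% of all), and the E-box CANNTG was in 7 of 9 and 17 of 20 (72.3% of all), and a match of either can share bases with the end of an octamer. A match describes letters in a window and is not evidence of binding. Whether the octamer has a part in the library differences described later was not tested. The windows below are examples from both blocks. They are those of the 3 proximal receptors with the most UMIs, of 2 further proximal receptors with an octamer, and of Tas2r105, the distal receptor with the most UMIs. The octamer is in capitals, and the windows of Tas2r138 and Tas2r105 hold none.
Tas2r108: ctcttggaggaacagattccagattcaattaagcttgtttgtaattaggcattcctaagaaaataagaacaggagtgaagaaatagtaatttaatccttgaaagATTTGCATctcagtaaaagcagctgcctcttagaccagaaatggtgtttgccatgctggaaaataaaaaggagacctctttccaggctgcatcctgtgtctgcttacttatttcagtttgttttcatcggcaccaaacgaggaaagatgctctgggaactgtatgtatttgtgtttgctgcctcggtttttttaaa
Tas2r137: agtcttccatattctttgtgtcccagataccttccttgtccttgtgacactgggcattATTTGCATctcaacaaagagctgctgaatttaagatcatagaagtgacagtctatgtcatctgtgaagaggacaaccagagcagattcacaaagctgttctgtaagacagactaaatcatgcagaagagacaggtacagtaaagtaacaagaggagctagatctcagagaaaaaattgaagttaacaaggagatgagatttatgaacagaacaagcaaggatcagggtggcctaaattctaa
Tas2r118: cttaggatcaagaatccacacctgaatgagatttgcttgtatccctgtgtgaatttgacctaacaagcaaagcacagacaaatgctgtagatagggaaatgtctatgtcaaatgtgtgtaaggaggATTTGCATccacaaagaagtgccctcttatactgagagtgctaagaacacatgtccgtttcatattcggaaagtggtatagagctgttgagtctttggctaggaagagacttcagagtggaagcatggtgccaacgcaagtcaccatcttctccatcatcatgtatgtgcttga
Tas2r126: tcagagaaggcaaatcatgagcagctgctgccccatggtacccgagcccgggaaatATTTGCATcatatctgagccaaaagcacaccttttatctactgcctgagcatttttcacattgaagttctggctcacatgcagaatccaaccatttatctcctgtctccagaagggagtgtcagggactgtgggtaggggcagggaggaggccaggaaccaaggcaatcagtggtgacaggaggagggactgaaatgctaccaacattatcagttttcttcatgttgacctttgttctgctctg
Tas2r138: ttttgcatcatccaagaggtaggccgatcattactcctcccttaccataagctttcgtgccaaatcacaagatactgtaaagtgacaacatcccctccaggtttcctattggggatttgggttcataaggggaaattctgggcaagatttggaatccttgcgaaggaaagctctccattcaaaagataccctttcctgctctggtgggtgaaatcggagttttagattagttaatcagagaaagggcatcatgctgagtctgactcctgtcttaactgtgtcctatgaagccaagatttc
Tas2r105: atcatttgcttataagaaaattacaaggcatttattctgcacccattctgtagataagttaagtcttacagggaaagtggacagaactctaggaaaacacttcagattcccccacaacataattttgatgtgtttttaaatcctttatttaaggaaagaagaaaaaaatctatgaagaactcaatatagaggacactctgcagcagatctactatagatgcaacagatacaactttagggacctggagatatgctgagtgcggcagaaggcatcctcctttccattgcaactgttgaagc
In order, these are chr6:40493342-40493641 (plus strand, octamer starting 146 bases before the start), chr6:40490988-40491287 (plus, 192 bases), chr6:23970011-23970310 (minus, 124 bases), chr6:42434285-42434584 (plus, 194 bases), chr6:40613261-40613560 (minus) and chr6:131687414-131687713 (minus).

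Nearly the whole bitter receptor family was detected, but only in part above a few molecules. Of 35 Tas2r genes 33 had at least 1 UMI among the kept cells, and Tas2r134 and Tas2r139 had 0 in both libraries. In tuft-gated cells 32 had a UMI, 31 in the +/fl-labelled library and 29 in the fl/fl-labelled library, and Tas2r144 had its only UMI outside the gate. The exact interval of a count of 0 reaches 0.193 and 0.690 CPM, so lower expression of these receptors was not detectable at this depth. At least 50 UMIs over both libraries were reached by 15 Tas2r genes, Tas1r1 and Tas1r3, and the remaining 20 Tas2r genes and Tas1r2 stayed under that number.

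Tas2r105 (ENSMUSG00000051153, chromosome 6, 131686532 to 131687495, minus strand), known as the mouse cycloheximide receptor, gave the most bitter receptor UMIs in both libraries. It had 528 UMIs (27.6 CPM, 25.3 to 30.1) in 175 tuft-gated cells of the +/fl-labelled library and 264 UMIs (49.4 CPM, 43.6 to 55.7) in 95 cells of the fl/fl-labelled library. That was 25.8% and 29.1% of all Tas2r UMIs. A cell with Tas2r105 held on average 3.02 and 2.78 of its UMIs, up to 27 and 24 in a single cell, whereas the other 14 Tas2r genes with 50 or more UMIs averaged 1.03 to 1.61 per cell with the gene. Tas2r105 was therefore the bitter receptor with the most UMIs and also the one most concentrated in the cells that had it.

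Among the proximal receptors, Tas2r108, a known denatonium receptor, had 214 UMIs in 190 cells (11.2 CPM) and 43 UMIs in 40 cells (8.04 CPM). Tas2r137, its neighbour on the same strand, had 207 UMIs (10.8 CPM) and 38 UMIs (7.11 CPM). Tas2r138, the mouse counterpart of the human receptor for phenylthiocarbamide, had 139 UMIs (7.27 CPM) and 19 UMIs (3.55 CPM). These 3 receptors were spread thinly, with at most 4 UMIs of any of them in a cell. Tas2r118 had 56 UMIs (2.93 CPM) and 23 UMIs (4.30 CPM). The other 5 proximal genes were rare, with 25 and 1 UMIs for Tas2r126, 10 and 1 for Tas2r135, 2 and 0 for Tas2r143, and none for Tas2r139 and Tas2r144. Octamer-bearing windows therefore belong both to the most frequent proximal receptors and to rare ones such as Tas2r135 and Tas2r144.

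Among the distal receptors, Tas2r117 followed Tas2r105 with 216 UMIs (11.3 CPM) and 98 UMIs (18.3 CPM), and Tas2r113 had 125 UMIs (6.54 CPM) and 56 UMIs (10.5 CPM). Tas2r123 had 93 and 40 UMIs, Tas2r102 had 76 and 40, Tas2r109 had 68 and 50, and Tas2r106 had 59 and 35. All 6 of these had more CPM in the fl/fl-labelled library. Tas2r110 had 48 and 28 UMIs, Tas2r104 had 47 and 28, Tas2r115 had 33 and 32, and Tas2r107 had 29 and 27. The fl/fl-labelled library, with less depth in all, thus had nearly as many molecules of the last 2. Another 7 distal genes had few UMIs in either library. Tas2r129 had 16 and 18, Tas2r116 13 and 14, Tas2r120 10 and 9, Tas2r103 6 and 7, Tas2r121 7 and 6, Tas2r125 4 and 8, and Tas2r130 1 and 10. The rarest were Tas2r131 with 2 and 4 UMIs, Tas2r124 with 3 and 1, Tas2r140 with 3 and 1, Tas2r122 with 3 and 0, Tas2r114 with 1 and 0, and Tas2r136 with 0 and 1. Tas2r119, outside both blocks, had 3 and 4.

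Tas1r3 (ENSMUSG00000029072, chromosome 4, 155859268 to 155863362, minus strand), the shared subunit of the sweet and umami receptors, had 542 UMIs in 412 cells (28.4 CPM, 26.0 to 30.9) and 175 UMIs in 133 cells (32.7 CPM, 28.1 to 38.0). Tas1r1 (ENSMUSG00000028950, chromosome 4, 152027914 to 152038568, minus strand), the umami-specific subunit, had 224 UMIs in 161 cells (11.7 CPM, 10.2 to 13.4) and 112 UMIs in 75 cells (20.9 CPM, 17.2 to 25.2). Tas1r2 (ENSMUSG00000028738), the sweet-specific subunit, had 3 UMIs in each library. Both umami subunits were thus measured in tuft-gated cells, while Tas1r2 was not measured there beyond these 3 UMIs. Over all kept cells Tas1r2 had 9 and 24 UMIs, of which 1 and 14 were in Aire-gated cells.

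**Figure D1:**
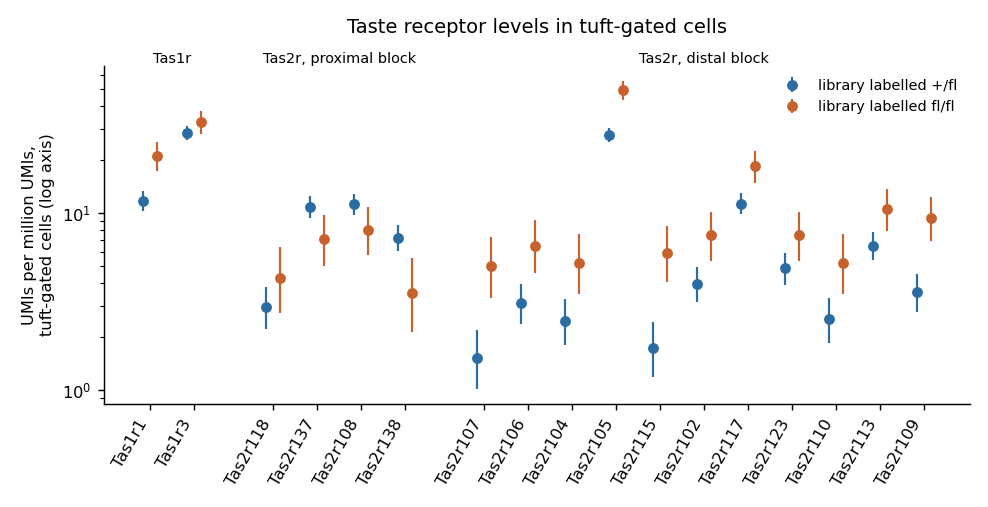
CPM (log axis) of the 17 taste receptor genes with 50 or more UMIs in tuft-gated cells, in genome order within each block, for the +/fl-labelled library (blue) and the fl/fl-labelled library (orange), with exact 95% Poisson bars for counting error. Tas2r105 is the highest bitter receptor in both, at 27.6 and 49.4, and Tas2r107 the lowest in the +/fl-labelled library, at 1.52.

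The receptors were far more frequent in tuft-gated cells than in cells that should lack them. Tas2r genes summed to 107 CPM (103 to 112) and 169 CPM (159 to 181) in tuft-gated cells, and to 3.24 CPM (15 UMIs) and 0.967 CPM (5 UMIs) in haematopoietic-gated cells, a 33.1-fold (20 to 59.2) and 175-fold (74.8 to 541) difference. With the cells of highest doublet score kept these folds were smaller, at 3.56 and 4.79 on the log2 scale against 5.05 and 7.45. Cells gated on Ccl21a, a chemokine of immature medullary cells, had 3.51 and 1.16 CPM, and cells with Aire, the regulator of self-antigen expression, had 6.68 and 8.83 CPM. The remaining cells, which pass no gate, had 54.0 and 22.5 CPM. Tas1r genes summed to 40.2 and 54.2 CPM in tuft-gated cells, to 2.16 and 0.967 CPM in haematopoietic-gated cells and to 14.3 and 6.19 CPM in the remaining cells. Tas1r1 alone had 11.7 and 20.9 CPM in tuft-gated cells and 8.95 and 3.04 CPM in the remaining cells. Tas1r2 had too few UMIs for such a comparison.

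Bitter receptor molecules did not stop at the gate. Cells just under the gate, at 5 to 10 UMIs of the 3 gate genes per 10000, had 116 CPM (106 to 126) and 234 CPM (213 to 257) of Tas2r. The lowest tuft-gated cells, at 10 to 20, had 191 CPM (178 to 205) and 256 CPM (232 to 282). Above that the level dropped, to 107 and 175 CPM at 20 to 40 and to 39.8 CPM (34.6 to 45.5) and 57.9 CPM (45.9 to 72.2) at 40 or more. Cells with the highest Trpm5, Dclk1 and Alox5ap were therefore not those with the most bitter receptor molecules. Tas1r genes had a weaker drop, from 52.3 and 70.8 CPM at 10 to 20 to 31.7 and 43.3 CPM at 40 or more. Cells with none of the gate genes had 2.40 and 1.81 CPM of Tas2r, near the haematopoietic-gated level. Whether cells under the gate are tuft cells was not tested.

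**Figure D2:**
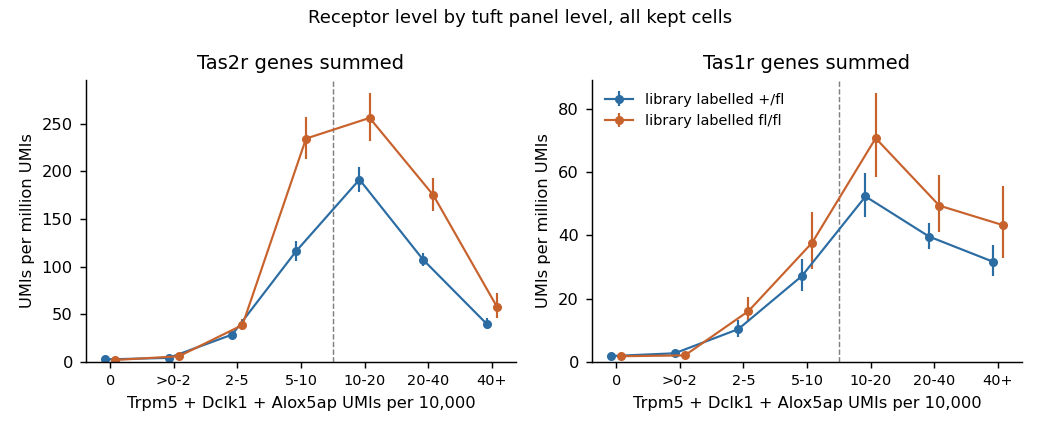
Summed CPM of the Tas2r genes (left) and Tas1r genes (right) in all kept cells, by UMIs of Trpm5, Dclk1 and Alox5ap per 10000, with exact 95% Poisson bars. The dashed line is the tuft gate, and Tas2r peaks in the bin just above it at 191 (+/fl-labelled, blue) and 256 (fl/fl-labelled, orange).

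As a share of cells, 691 of 1754 tuft-gated cells (39.4%, 37.1 to 41.7) and 271 of 692 (39.2%, 35.5 to 42.9) had a Tas2r UMI. These near-equal shares come from libraries of unequal depth. Cells were therefore thinned to 5000 UMIs each, without the 414 and 276 cells below that depth, and the shares were 26.5% (24.1 to 28.9) of 1340 cells and 35.1% (30.5 to 39.9) of 416 cells. Haematopoietic-gated cells thinned likewise had 2.32% and 0.298%, so the tuft shares were well above that background. For Tas1r3 the thinned shares were 13.3% (11.5 to 15.2) and 15.1% (11.8 to 19.0), and for Tas1r1 5.15% (4.03 to 6.47) and 8.41% (5.93 to 11.5). The share of cells with a bitter receptor UMI was thus higher in the fl/fl-labelled library only after thinning, and the unthinned ratio pointed slightly the other way.

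Most receptor-bearing cells showed 1 or 2 bitter receptor genes and a minority showed many. Among cells with a Tas2r UMI, 311 of 691 (45.0%, 41.3 to 48.8) and 142 of 271 (52.4%, 46.3 to 58.5) had UMIs of at least 2 Tas2r genes. After thinning these shares were 36.3% (31.3 to 41.6) and 46.6% (38.3 to 55.0). Thinned to 2000 UMIs they were 23.3% and 28.1%, and thinned to 10000 UMIs 38.2% and 57.1%. At the thinned depth 0.896% and 2.40% of all tuft-gated cells had 5 or more Tas2r genes. The widest repertoire in a cell was 16 genes in the +/fl-labelled library and 11 in the fl/fl-labelled library. The cell with 16 had 40 Tas2r UMIs among 14289, from 12 distal genes, 3 proximal genes and Tas2r119, and no Tas1r3. The cell with 11 had 15 Tas2r UMIs among 7864, all 11 genes from the distal block. The 10% of tuft-gated cells with the most Tas2r UMIs held 63.9% and 64.1% of these UMIs, so Poisson intervals on summed UMIs understate the spread between cells.

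**Figure D3:**
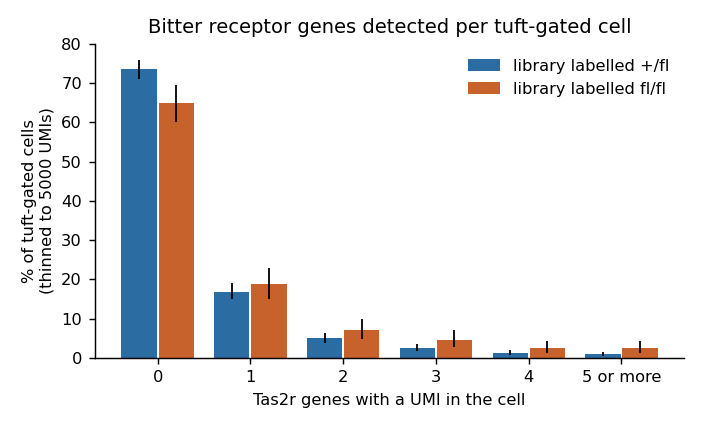
Share of tuft-gated cells by number of Tas2r genes with a UMI, each cell thinned to 5000 UMIs (1340 cells of the +/fl-labelled library in blue, 416 of the other in orange), with exact 95% binomial bars. Cells with none are 73.5% and 64.9%, and cells with exactly 1 gene are 16.9% and 18.8%.

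Bitter receptors tended to be found in the same cells. All shares in this paragraph are of thinned cells and describe detection in the same libraries, in cells that also differ in Gnat3 level. Of cells with Tas2r105, 59 of 93 (63.4%, 52.8 to 73.2) and 35 of 51 (68.6%, 54.1 to 80.9) also had another distal Tas2r, against 10.7% and 21.4% of cells without it. A proximal Tas2r was found in 39.8% and 35.3% of Tas2r105 cells and in 13.2% and 7.67% of the others. Co-detection therefore crossed the blocks, which lie far apart on chromosome 6. Single pairs varied. Tas2r117 was found in 18.3% and 17.6% of Tas2r105 cells against 3.61% and 7.95% of the others, and Tas2r104 in 9.68% and 15.7% against 0.481% and 0.274%. Of the proximal pairs, Tas2r137 was found in 10 of 76 Tas2r108 cells (13.2%, 6.49 to 22.9) against 4.91% of the others in the +/fl-labelled library, and in 2 of 19 (10.5%, 1.30 to 33.1) against 2.52% in the fl/fl-labelled library. In the +/fl-labelled library Tas2r138 was found in 13.9% of Tas2r137 cells against 2.76% of the others, and in 3.95% of Tas2r108 cells against 3.32%, and in the fl/fl-labelled library neither pair was found in 12 and 19 cells.

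The umami-specific subunit Tas1r1 and the shared subunit Tas1r3 differed from each other in this respect. Tas1r1 was found with bitter receptors, since 40 of 69 Tas1r1 cells (58.0%, 45.5 to 69.8) and 24 of 35 (68.6%, 50.7 to 83.1) had a Tas2r UMI, against 24.8% and 32.0% of cells without Tas1r1. For Tas1r3 the shares were closer, 31.5% (24.7 to 38.8) and 47.6% (34.9 to 60.6) against 25.7% and 32.9%. Tas1r1 itself was found in 9 of 178 Tas1r3 cells (5.06%, 2.34 to 9.38) and 7 of 63 (11.1%, 4.59 to 21.6), against 5.16% and 7.93% of cells without Tas1r3. The share of Tas1r1 cells among Tas1r3 cells thus lay within counting error of that among the others.

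Receptor detection followed gustducin closely in both libraries. With thinned cells grouped by their Gnat3 UMIs, a grouping chosen after seeing the clusters described below, 12.1% (9.51 to 15.2) and 12.4% (7.53 to 18.9) of cells with no Gnat3 UMI had a Tas2r UMI. The share was 20.8% and 27.4% at 1 to 3 Gnat3 UMIs and 44.4% and 46.2% at 4 to 7. At 8 or more it was 57.0% (50.5 to 63.4) and 64.9% (55.2 to 73.7), and 32.6% and 39.6% of those cells had at least 2 Tas2r genes. The increase was steepest for the distal block, from 11.4 to 279 CPM and from 20.7 to 404 CPM between the lowest and highest group, and less steep for the proximal block, from 17.6 to 81.8 CPM and from 12.4 to 48.6 CPM. Tas1r1 moved the same way, from 1.29% to 16.1% and from 4.14% to 18.9% of cells. Tas1r3 did not, with 11.4% to 14.9% of cells in every group of the +/fl-labelled library and 11.6% to 18% in the fl/fl-labelled library. Cells with Rgs21, a regulator of G protein signalling known from taste cells, also held more, with a Tas2r UMI in 59.3% and 70.7% of them against 22.5% and 26.3% of cells without it.

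**Figure D4:**
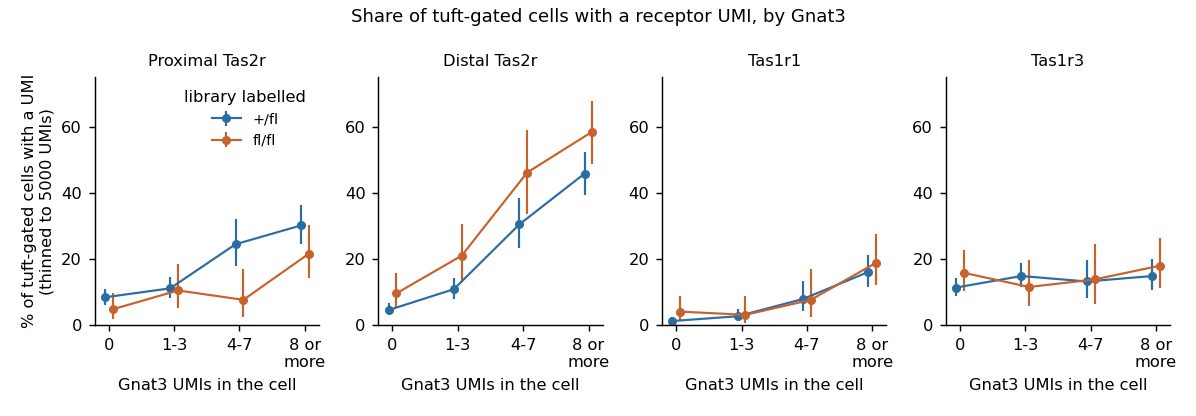
Share of tuft-gated cells (thinned to 5000 UMIs) with a UMI of any proximal Tas2r, any distal Tas2r, Tas1r1 or Tas1r3, by Gnat3 UMIs in the cell, with exact 95% binomial bars for the +/fl-labelled library (blue) and the other (orange). The distal share goes from 4.60% and 9.66% without Gnat3 to 45.9% and 58.6% at 8 or more UMIs, while Tas1r3 stays between 11.4% and 18%.

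Clustering the tuft-gated cells without the receptors gave 7 clusters, most of which came mainly from 1 library, so a cluster may be that library rather than a cell state. The cluster with the highest Gnat3 was also the one with the highest Rgs21 (415 and 31 cells), and it was led by Myl1, Mucl2, Meg3, Ovol3 and Scn2a. There Tas2r summed to 200 CPM (189 to 211) and 781 CPM (686 to 886). In the cluster with the highest Ptgs1, the cyclooxygenase gene, over both libraries together (410 and 20 cells, with Col9a3, Prx, Clec4a1 and Ank2 among its leading genes), Tas2r summed to 47.4 CPM (39.4 to 56.6) and, from only 3 UMIs, 41.8 CPM (8.62 to 122). The Gnat3 cluster was thus, by Tas2r, 4.21-fold (3.49 to 5.12) and 18.7-fold (6.32 to 91.3) higher, and the distal block alone 8.30-fold and 24.5-fold higher. Ptgs1 barely set that cluster apart, at 838 CPM over both libraries against 834 CPM in the cluster of 521 and 37 cells described next, which was marginally higher in each library alone. Against the latter cluster the Gnat3 cluster was 6.38-fold (5.50 to 7.43) and 30-fold (15.5 to 66.3) higher. The size of this difference also moved with the clustering. On the log2 scale the Tas2r value of the +/fl-labelled library went from 2.07 to 4.53 with doublets kept, and that of the fl/fl-labelled library from 4.22 to 1.45 with clusters made in each library alone. Tas2r105 had 382 UMIs in the Gnat3 cluster and 10 in the Ptgs1 cluster of the +/fl-labelled library (62.4 and 3.89 CPM), and 94 and 0 UMIs in the fl/fl-labelled library. The proximal receptor Tas2r108 had 14.9 and 12.4 CPM in these clusters of the +/fl-labelled library. Tas1r3 was nearly level between the clusters, at 28.4 and 33.1 CPM in the +/fl-labelled library.

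The other clusters held fewer or more receptors without a simple relation to Gnat3. The largest, led by Col9a3, Cldn10, Kcnk1, Sparc and Lrrc26 (521 and 37 cells), had 31.3 and 26.1 CPM of Tas2r. A cluster led by Gm26917, Slit2, Epha5, 3222401L13Rik and Galnt14 (241 and 50 cells) had 313 CPM (282 to 347) and 406 CPM (303 to 534), above the Gnat3 cluster in the +/fl-labelled library. Its cells were shallow, with medians of 4191 and 2140 UMIs. When the +/fl-labelled library was clustered alone, the cluster led by Epha5, Stat4 and Galnt14 again had the most Tas2r, at 304 CPM, and Malat1, a nuclear RNA, took 161500 CPM there against 77064 to 130166 in the other 4 clusters. The part of nuclear RNA or cell quality in this level was not tested. The cluster led by Ddx3y, Ptgds, Tstd1, Eif2s3y and Gp2 held 489 cells of the fl/fl-labelled library and 37 of the other and had 143 and 28.4 CPM. Clusters led by Spink5, Gm94, Bpifa1, Gsta4 and Krt6a (88 and 33 cells) and by Prss2, S100a9, Defb19, Ins2 and Retnlb (42 and 32 cells) had 64.8 and 132 CPM, and 26.9 and 40.4 CPM.

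Clustering each library alone kept library and cluster apart. In the fl/fl-labelled library the cluster with the most Gnat3 (1452 CPM, 265 cells, with Rgs21 and Ovol3 among its leading genes) had the most Tas2r, at 257 CPM (239 to 276). Clusters of 227 and 174 cells, with Gnat3 at 178 and 566 CPM, had 94.2 and 45.8 CPM of Tas2r. The former was the Malat1-rich cluster of this library, with 143776 CPM against 78420 to 84202 in the others, and it held less Tas2r than the Gnat3-high cluster. A further 26 cells led by Dcn, Upk3b and Ptgis had 108 CPM (66.0 to 167). In the +/fl-labelled library the cluster with the most Gnat3 (1934 CPM, 379 cells) had 196 CPM, less than the Malat1-rich cluster above, and the clusters of 489 and 473 cells with the least Gnat3 had 27.9 and 49.1 CPM. The Malat1-rich clusters of the libraries were not matched cells, with Gnat3 at 913 and 178 CPM.

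Cells with a bitter receptor differed from the other tuft-gated cells in named genes beyond the receptors. The comparison is a description, since the cells were split by the receptors themselves, with 355 and 146 thinned cells with and 985 and 270 without a Tas2r UMI. Of the 13 genes of the taste cascade 11 reached 50 UMIs, and 8 of them were higher in receptor-bearing cells of both libraries and 0 lower in both, against 29.2% of genes higher and 29.3% lower in both. Gnat3 stood at 1528 against 495 CPM and 1814 against 629 CPM. Gnb3, a G protein beta subunit, stood at 674 against 319 and 1416 against 717 CPM, and Plcb2 at 535 against 303 and 545 against 364 CPM. Trpm5, the channel at the end of the cascade and a gate gene, was nearly level at 653 against 657 and 760 against 651 CPM.

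The 10 genes with the highest ratio were Nrxn3, Rgs21, Galnt14, Epha5, Mei4, Gm26797, Cited2, Gnat3, Slit2 and Lpl. Nrxn3, a synaptic adhesion protein, had 50.7 against 5.28 and 60.3 against 7.41 CPM, and Rgs21 had 127 against 19.5 and 205 against 44.4 CPM. Only 0.522% of 3257 genes compared were 2-fold or more higher in both libraries. Several of these genes (Slit2, Epha5 and Galnt14) also led the shallow cluster above. The 10 lowest were Reg3g, Ly6d, Bpifa1, Ptprc, Wfdc18, Ifi27l2a, Cxcl2, Ccl5, S100a6 and 4930523C07Rik. Among the 8 effector genes 6 were lower, at any size, in receptor-bearing cells of both libraries, against 29.3% of all genes compared. They included Ptgs1 (555 against 771 and 384 against 448 CPM) and Alox5ap, a gate gene (958 against 1555 and 1007 against 1492 CPM). Alox5 was among them but only slightly lower (400 against 417 and 412 against 439 CPM). Il25, the tuft cell cytokine, and Chat, which makes acetylcholine, were higher, with Il25 at 98.6 against 82.6 and 249 against 152 CPM. Pou2f3 differed less, at 161 against 130 and 160 against 154 CPM.

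Between the libraries, the summed bitter receptor level in tuft-gated cells was higher in the fl/fl-labelled library, at 169 against 107 CPM, 1.58-fold (1.46 to 1.71). For the Tas1r genes the fold was 1.35 (1.17 to 1.54). Within that sum the blocks went opposite ways. Distal receptors were 2.0-fold higher in the fl/fl-labelled library, at 145 against 72.8 CPM (ratio interval 1.83 to 2.18). Proximal receptors were lower there, at 23.4 against 34.2 CPM, so that the +/fl-labelled library was 1.46-fold higher (1.21 to 1.78). Among thinned cells 16.9% and 31.0% had a distal Tas2r UMI, and 15% and 11.1% a proximal one. Outside the gate the direction varied. Cells just under the gate, at 5 to 10 UMIs of the gate genes per 10000, had 89.6 and 207 CPM of the distal block and 26.0 and 27.6 CPM of the proximal block, and at 2 to 5 they had 21.1 and 34.4 CPM and 7.46 and 4.07 CPM. In Aire-gated cells the distal ratio was 1.53 (1.21 to 1.94) and the proximal ratio 0.716 (0.449 to 1.15), whereas over all remaining cells both blocks were lower in the fl/fl-labelled library, with ratios of 0.471 (0.411 to 0.540) and 0.218 (0.154 to 0.305). The remaining cells numbered 878 and 2135, while 280 and 233 kept cells lay at 5 to 10 UMIs of the gate genes. The part of this make-up in the ratios of remaining cells was not tested.

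All 11 distal receptors with 50 or more UMIs were higher in the fl/fl-labelled library, and all 11 had a counting interval above a ratio of 1, against 22% of 12304 genes, or 20.1% of 7386 genes within the same range of UMIs. In some other settings, given at the end, the interval of Tas2r123 or of Tas2r104 held 1. The widest differences were those of Tas2r115 (3.47-fold, 2.06 to 5.81), Tas2r107 (3.33-fold, 1.90 to 5.82) and Tas2r109 (2.63-fold, 1.79 to 3.84). Tas2r105 was 1.79-fold higher (1.54 to 2.08), and the narrowest difference was that of Tas2r123 (1.54-fold, 1.03 to 2.25). The library difference was therefore shared along the distal block and not carried by Tas2r105 alone. Of the 4 proximal receptors with 50 or more UMIs 2 had an interval below 1, against 19.1% of all genes and 13.8% of genes of similar UMIs. These were Tas2r138 (ratio 0.489, 0.286 to 0.792) and Tas2r137 (0.656, 0.451 to 0.931), and each of these intervals held 1 in another setting. Tas2r108 had a ratio of 0.718 (0.505 to 1.0), and Tas2r118 went the other way without leaving the counting error (1.47, 0.862 to 2.42). With 1 CPM added to both levels, 3 receptors (Tas2r107, Tas2r109 and Tas2r115) were 2-fold or more higher in the fl/fl-labelled library and 0 lower, against 3.93% of genes higher, 2.84% lower and 6.78% either way. With 0.1 CPM added in place of 1, the number of receptors past 2-fold was 7, of which 6 were higher and 1, Tas2r138, was lower in the fl/fl-labelled library. At any size 52% of genes were higher in the fl/fl-labelled library, with a median log2 ratio of 0.02.

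**Figure D5:**
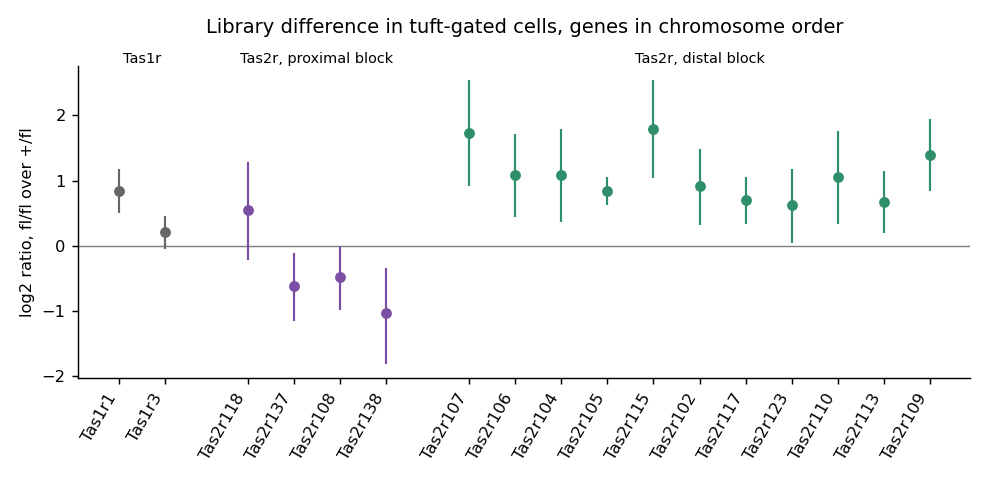
Log2 ratio of the fl/fl-labelled library over the +/fl-labelled library in tuft-gated cells for the 17 receptors with 50 or more UMIs, in chromosome order within each block (grey Tas1r, violet proximal, green distal), with exact 95% counting bars. All 11 distal receptors lie above 0, and 3 of 4 proximal receptors lie below it.

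Of the Tas1r genes, Tas1r1 was 1.79-fold higher in the fl/fl-labelled library (1.41 to 2.25) and Tas1r3 differed by less than counting error (1.15-fold, 0.968 to 1.37). The libraries also differed in the genes that the receptors were found with. In tuft-gated cells 10 of the 11 measured cascade genes were higher in the fl/fl-labelled library, against 52% of 12304 genes. Among the 10 were Gnat3 (1.2-fold), Gng13 (1.82-fold), Gnb3 (2.06-fold) and Rgs21 (1.98-fold). Trpm5 was at only 1.05-fold, and Gnb1, Trpm4 and Pde1c differed by less than counting error. Ptgs1 was lower (ratio 0.609). Pou2f3 differed by less than counting error (1.08-fold, 0.995 to 1.17). The part of these genes in the receptor differences was not tested. Ratios within the groups by Gnat3 UMIs are given as a description, since these groups are broad and the top one is open. In cells with 8 or more Gnat3 UMIs the distal block was 1.44-fold higher (1.21 to 1.72) and the proximal block had a ratio of 0.595 (0.373 to 0.918). At 1 to 3 Gnat3 UMIs the distal ratio was 2.40 (1.48 to 3.83), and at 4 to 7 it was 1.08 (0.744 to 1.55). The proximal ratio was 0.297 (0.104 to 0.695) at 4 to 7 Gnat3 UMIs and 0.998 (0.484 to 1.90) at 1 to 3. In cells with no Gnat3 UMI neither block differed beyond counting error, with ratios of 1.82 (0.911 to 3.47) and 0.703 (0.303 to 1.45). Within the joint clusters neither block kept 1 direction. In the Gnat3 cluster, which held 31 cells of the fl/fl-labelled library, the proximal block was higher in that library (1.77-fold, 1.16 to 2.60). There the distal block was 4.59-fold higher (3.93 to 5.33). The cells of this cluster were not alike between libraries, with Gnat3 at 1897 and 3391 CPM and Rgs21 at 136 and 845 CPM. In the Gnat3-high clusters made in each library alone (379 and 265 cells), the proximal block had 48.2 and 30.6 CPM. The distal block had 148 and 225 CPM in those. In every other joint cluster the proximal interval held 1. The distal ratio was 0.846 (0.226 to 2.24) in the cluster led by Col9a3 and Cldn10. It was 0.926 (0.292 to 2.57) in the cluster led by Prss2, and above 1 in all others. Among the latter only the interval of the Ptgs1 cluster held 1 (1.56, 0.183 to 5.95).

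Beyond the receptors, the chaperones that carry chemoreceptors to the cell surface were mostly not detected. Rtp1, Rtp2 and Rtp3 were at 0 UMIs in tuft-gated cells of both libraries, and Reep2 had 17 and 2 UMIs. Rtp4, which is known to aid bitter receptor transport, had 73.2 and 41.0 CPM, a ratio of 0.559 (0.483 to 0.646), and it was lower in receptor-bearing cells, at 45.6 against 83.7 and 38.4 against 48.9 CPM. Of 8 other receptors on a fixed list for tuft cells 3 reached 50 UMIs. The succinate receptor Sucnr1 had 7.33 and 14.4 CPM, the calcium-sensing receptor Casr 2.93 and 5.80 CPM, and Tnfrsf25, a receptor of the tumour necrosis factor family, 15.7 and 10.8 CPM. Vmn2r26 and Gprc6a were at 0.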

How the data were processed

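The deposited values of both libraries are whole-number counts of UMIs for each gene in each cell barcode. Cell Ranger and Seurat are named per the submitters' processing notes without role or version, and the matrix headers carry software version 3.1.0. The genome build is not given in the sources used here, and neither is the annotation. Cells with at least 500 genes, 1000 UMIs and at most 15% mitochondrial UMIs passed. Scrublet's own threshold marked 1 and 0 cells and so did not work, and the 208 and 539 cells with the highest scores were removed (0.8% per 1000 cells), which included 123 and 92 cells that would pass the tuft gate. Gates were applied in the order tuft, haematopoietic (5 or more UMIs of Cd3d, Cd3e, Cd3g, Flt3, Ccr7, Itgax, Csf1r and Cd79a per 10000), Ccl21a (50 or more), Aire (1 or more) and remaining. For CPM, UMIs of a gene in a group of cells were divided by all UMIs of that group. Ratios of sums carry exact binomial intervals at 95%. Thinning drew 5000 UMIs per cell without replacement.

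Clusters came from scanpy 1.11.5 (2000 variable genes without receptors, 30 components, 15 neighbours, Leiden resolution 0.5) with Python 3.11.15, numpy 2.4.6 and scipy 1.17.1. Genes were compared with at least 50 UMIs in both groups together, and receptor-bearing with other cells at 50 CPM. Every receptor may be named, with the fixed lists, the 5 leading genes of each cluster (1 is not reported here) and the 10 highest and lowest genes of receptor-bearing cells. Receptors and lists were chosen with earlier results of these data known. The genomic blocks, the groups by Gnat3, the description of clusters made in each library alone and the promoter motifs were added after values had been seen. The ratio and thinning code was tested on simulated counts.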

Additional observations from a re-analysis of the deposited data

How the results depend on the processing

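Values are log2 ratios or percentages. No paired analysis was possible because each genotype has 1 library. The Tas2r ratio between libraries (0.66) was 0.78 with the tuft gate at 5, 0.94 under a stricter cell filter (1000 genes, 2000 UMIs, 10% mitochondrial) and 0.47 as a mean of per-cell CPM. The ratio of the thinned shares of cells with a Tas2r UMI (0.41) became -0.0086 without thinning. Tuft-gated over haematopoietic-gated cells (5.05 and 7.45) gave 3.56 and 4.79 with doublets kept. The share of receptor-bearing cells with 2 or more Tas2r genes (36.3% and 46.6%) was 29.3% in the +/fl-labelled library at a gate of 20 and 27.8% under the stricter filter, 23.3% and 28.1% thinned to 2000 UMIs, 57.1% in the fl/fl-labelled library thinned to 10000 and 45.0% in the former unthinned. The Gnat3 over Ptgs1 cluster ratio in the +/fl-labelled library (2.07) was 2.76 at a gate of 5, 4.53 with doublets kept, 2.46 as a mean of per-cell CPM, 2.46 at resolution 0.3, 4.10 at resolution 1 and 2.67 with the Ptgs1 cluster taken in each library alone (added after seeing the data), and in the other (4.22) it was 1.45 with clusters made in each library alone. No value is given for the latter at resolution 1 or under the stricter filter, where a cluster held fewer than 10 of its cells. The number of receptors past 2-fold (3) was 5 at a gate of 5, 5 with 20 or more UMIs, 7 with no filter and 7 with 0.1 CPM added (6 higher, 1 lower). The distal ratio (1.0) was 1.33 under the stricter filter, 0.80 as a mean of per-cell CPM and 1.09 without Tas2r105, and the proximal ratio (-0.55) stayed between -0.71 and -0.38. These block settings were chosen after seeing the data. Over 17 receptors and 5 settings, 85 of 85 single ratios kept their sign and 4 left the main interval. Whether a single interval held a ratio of 1 was less stable. That of Tas2r123 did so at a gate of 5 and under the stricter filter, and that of Tas2r104 at a gate of 20. Those of Tas2r137 at a gate of 5 and of Tas2r138 under the stricter filter held it too. Conversely, Tas2r108 lay below it with doublets kept and Tas2r118 above it under the stricter filter.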
